A study of Mus musculus with 16 samples.

Results

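The interleukin-6 family comprises cytokines that signal through the shared receptor chain gp130, and 10 of its genes were followed here through the dorsal root ganglia (DRG) of nerve-injured and sham-operated mice. The members were 4 ligand genes (Il6, Lif, Osm and Cntf) and 6 receptor genes (Il6ra, Il6st, Lifr, Osmr, Cntfr and Il31ra). They were chosen by name, each matched 1 Ensembl identifier among the 52636 genes listed in the counts, and 9 of the 10 were among the 21371 genes that passed the filter on low counts and were tested. Osm did not pass it and is given as counts. Il6 had also been named by the study from these same libraries, so its course is not independent evidence.

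RNA came from the L3 to L6 DRGs of male C57Bl6/J mice of 3 to 4 months, 1 mouse per library. The 4 groups of 4 mice were injured mice given DMI (SNI-DMI) or saline (SNI-Saline) and sham-operated mice given DMI (Sham-DMI) or saline (Sham-Saline). In spared nerve injury (SNI), here of the tibial form, the common peroneal and sural branches of the left sciatic nerve were tied and cut and the tibial branch was left, and sham mice had surgery without the injury. Desipramine (DMI), a tricyclic antidepressant that blocks noradrenaline reuptake, was injected i.p. at 15 mg/kg 2 times daily for 3 weeks from 4 weeks after surgery, and the other mice received saline. The study's methods place the start of treatment at 4 months after surgery instead. The labels give DRG as the cell type but spinal cord as the tissue. Transcripts of 8 sensory neuron genes (Prph, Avil, Scn10a and others) summed to 6449 to 7879 CPM (read counts scaled to 1000000 per library), against 11.5 to 37.6 CPM for 8 spinal cord genes, which came mostly from Aqp4 and Mobp and of which Opalin had 0 counts in 2 libraries and Olig2 and Slc32a1 in 5 each. All 7 injured neuron markers (Atf3, Ecel1, Npy, Nts, Gpr151, Sox11 and Csf1) rose in SNI-Saline versus Sham-Saline, with summed levels of 210 to 240 CPM against 57.3 to 63.7 CPM. Between 41194238 and 73920332 counts per mouse fell on genes. The sample numbers in the labels were 17 to 20 for Sham-DMI, 21 to 24 for SNI-DMI, 33 to 36 for SNI-Saline and 37 to 40 for Sham-Saline. The sources used here do not say what these numbers stand for. Each group holds its own run of numbers, so anything that follows them cannot be told apart from the group.

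As background, a ligand of this family first binds a receptor of its own and then engages gp130, encoded by Il6st, or a gp130-like partner, and the paired chains activate JAK kinases and the transcription factor STAT3. IL-6 binds IL-6Rα, which can also be shed and act on cells that lack it. LIF and CNTF signal through gp130 with the LIF receptor, CNTF with the help of CNTFRα, and oncostatin M signals through gp130 with the oncostatin M receptor. The IL-31 receptor pairs Il31ra with Osmr in place of gp130, and in the DRG it marks sensory neurons of itch. After nerve injury the family is known for STAT3 activation in neurons, for macrophage recruitment and for the regeneration response.

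The genes lie on 7 mouse chromosomes, and 3 pairs of members sat beside each other with no protein-coding gene between them. Coordinates are of GRCm38. Il6 (ENSMUSG00000025746) is at chr5:30013114-30019981 on the plus strand, Il6ra (ENSMUSG00000027947) at chr3:89864059-89913196 on the minus strand, Cntf (ENSMUSG00000079415) at chr19:12763660-12765632 on the minus strand and Cntfr (ENSMUSG00000028444) at chr4:41657498-41697089 on the minus strand. Il6st (ENSMUSG00000021756, chr13:112464070-112510086, plus strand) and Il31ra (ENSMUSG00000050377, chr13:112519898-112594360, minus strand) were 9.81 kb apart. Osm (ENSMUSG00000058755, chr11:4236420-4241026, plus strand) and Lif (ENSMUSG00000034394, chr11:4257557-4272514, plus strand) were 16.5 kb apart, and Osmr (ENSMUSG00000022146, chr15:6813577-6874969, minus strand) and Lifr (ENSMUSG00000054263, chr15:7090614-7197489, plus strand) 216 kb. Of the exon bases of Cntf, 78.9% are shared with Zfp91 on the same strand, a gene at 102 to 140 CPM, so the counts of Cntf are uncertain. Il31ra shares 0.793% of its exon bases with the pseudogene Gm3226, and Il6ra 2.80% with the antisense gene Gm42809, which had 8 counts in all 16 libraries.

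The promoters of the 3 members that changed after injury are printed to set them side by side, since they differ in base composition and in the motifs they hold. Each window runs from 250 bases before to 50 bases after a RefSeq start, 5′ to 3′ on the gene's strand, in GRCm38.p6. Capitals mark matches, on both strands, to AP-1 (TGANTCA), a CRE half-site (TGACG), C/EBP (TTGNGCAA), STAT (TTCNNNGAA) or the NF-kB consensus. The windows are Il6 at chr5:30012864-30013163, plus strand; the first of 2 windows of Lifr at chr15:7129322-7129621, plus strand; and Il31ra at chr13:112580613-112580912, minus strand. The last 2 lie within the gene spans given above, which start at other first exons.
Il6: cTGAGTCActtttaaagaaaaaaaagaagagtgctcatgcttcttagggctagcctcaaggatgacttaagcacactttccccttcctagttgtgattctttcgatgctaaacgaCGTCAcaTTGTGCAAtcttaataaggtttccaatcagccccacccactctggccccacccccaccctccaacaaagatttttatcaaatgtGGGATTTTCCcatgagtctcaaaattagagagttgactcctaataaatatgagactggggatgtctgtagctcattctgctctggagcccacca
Lifr: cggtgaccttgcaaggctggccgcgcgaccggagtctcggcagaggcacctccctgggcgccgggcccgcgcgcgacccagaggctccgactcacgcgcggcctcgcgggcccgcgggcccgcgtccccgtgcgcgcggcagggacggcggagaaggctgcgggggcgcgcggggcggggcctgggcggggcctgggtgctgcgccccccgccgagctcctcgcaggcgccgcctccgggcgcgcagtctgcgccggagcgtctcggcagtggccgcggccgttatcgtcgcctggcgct
Il31ra: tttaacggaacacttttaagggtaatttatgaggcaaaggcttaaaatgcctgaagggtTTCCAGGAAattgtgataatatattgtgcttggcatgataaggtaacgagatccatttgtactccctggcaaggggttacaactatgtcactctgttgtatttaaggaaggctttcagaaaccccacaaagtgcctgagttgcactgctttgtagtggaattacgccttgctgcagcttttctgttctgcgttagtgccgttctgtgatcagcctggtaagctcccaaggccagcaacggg

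The Il6 window was 44.0% GC and held 4 matches, whose first bases lay 249 bases (AP-1), 135 bases (CRE half-site), 128 bases (C/EBP) and 44 bases (NF-kB) before the start. The Lifr window was 81.3% GC and neither it nor the second window of the gene held a match. The Il31ra window was 44.7% GC and held 1 STAT match 191 bases before the start. Of the 32851 mouse promoter windows of this length, 7.81% held the AP-1 letters, 20.8% the CRE half-site, 2.94% C/EBP, 8.30% STAT and 4.51% NF-kB. Windows were found for 9 of the 10 members. Matches also lay in windows of members not called after injury: AP-1 in Lif, Osmr and Cntf, a CRE half-site in Il6ra and NF-kB in 1 of 6 windows of Cntfr. These matches are letters in a window and no measure of binding.

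Receptor transcripts were abundant in the DRG and ligand transcripts scarce. Levels were compared between genes as CPM per kilobase of exon, averaged over the 16 mice. Il6st led at 50.6 ± 5.55 (SD, n = 16), followed by Lifr at 42.0 ± 6.66 and Cntfr at 25.3 ± 2.08. Il31ra at 6.05 ± 1.15 and Osmr at 5.86 ± 0.589 came next, and Il6ra, the gene of the chain that binds IL-6, was far lower at 0.520 ± 0.120. The ligands Cntf, Lif, Il6 and Osm followed at 0.365 ± 0.0980, 0.218 ± 0.0734, 0.0816 ± 0.0487 and 0.0227 ± 0.0229. The value of Cntf was divided by all its exon bases, 78.9% of which are shared with Zfp91, so its level and place in this order are uncertain. The ranges over mice overlapped between Il6st and Lifr, between Il31ra and Osmr, and between each pair of neighbours from Il6ra down to Osm. They did not overlap between Lifr and Cntfr, between Cntfr and Il31ra or between Osmr and Il6ra. With the length of the longest transcript in place of all exons, Osmr stood at 12.9 and Il31ra at 9.33, so their order changed.

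**Figure D1:**
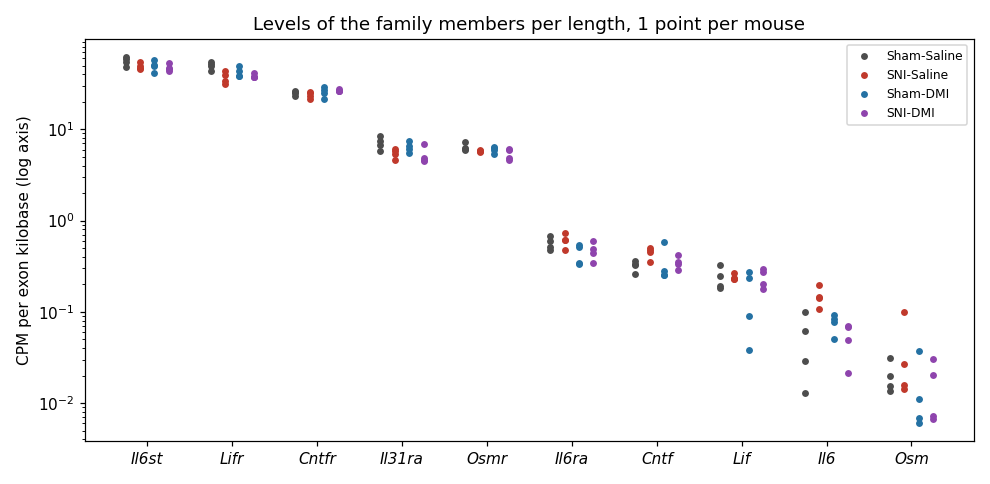
Level of each family member as CPM per exon kilobase on a log axis, with 1 point per mouse and 4 mice per group in the colours of the key. Il6st, Lifr and Cntfr lie above 20, Il31ra and Osmr between 4 and 9, and Il6ra and the 4 ligands below 1.

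After injury the Il6 transcript rose and the receptor transcripts Lifr and Il31ra fell. In SNI-Saline versus Sham-Saline 3 of the 9 tested members had an adjusted p under 0.1 (edgeR's quasi-likelihood test with Benjamini-Hochberg adjustment over all genes tested), where 12.0% of all tested genes did. Of these 3, 1 was higher and 2 lower, as were 5.85% and 6.18% of all tested genes. The same 3 members were DEGs by the nominal p under 0.05 and absolute log2 fold change of at least 0.32 that the study used, a rule met by 7.15% of all tested genes. The median log2 fold change of the 9 members was -0.06, against -0.001 over all tested genes.

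Il6, the cytokine gene itself, was the only member whose SNI-Saline values lay wholly apart from those of Sham-Saline, as was the case for 15.4% of tested genes. The Sham-Saline mice had 0.0696, 0.240, 0.0312 and 0.151 CPM, or 4, 17, 2 and 10 counts. The SNI-Saline mice had 0.344, 0.261, 0.353 and 0.474 CPM, or 19, 16, 22 and 31 counts. Each SNI-Saline mouse exceeded the highest Sham-Saline mouse, by a narrow margin for replicate 2. The log2 fold change was 1.502 ± 0.451 (SE; 95% interval 0.55 to 2.45), with an adjusted p of 0.0571 and an exact permutation p of 0.0286, the smallest that 4 mice against 4 can give. Summed over the group, 33 counts in Sham-Saline gave 0.128 CPM (exact Poisson 95% interval 0.0878 to 0.179) and 88 counts in SNI-Saline gave 0.360 CPM (0.289 to 0.444). These intervals cover counting error only. The call was lost when SNI-Saline replicate 1 or 4 was left out, or replicate 1, 3 or 4 of Sham-Saline. The adjusted p was then 0.103 to 0.153, and the log2 fold change ran from 1.20 to 1.61.

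Of 8 macrophage markers 4 (Aif1, C1qa, C1qb and Cd68) rose in the same comparison, with sums over the 8 of 90.5 to 107 CPM in Sham-Saline and 115 to 201 CPM in SNI-Saline and none of the 8 at 0 in any library. The highest macrophage sum was in SNI-Saline replicate 2, the mouse with the lowest Il6 of its group. Of 10 neutrophil markers none passed the test, and their sums were 10.9 to 41.1 CPM in Sham-Saline and 16.4 to 52.3 CPM in SNI-Saline. The part of either cell type in the Il6 counts was not tested. In bulk ganglia, a change in the number of cells that make a transcript cannot be told apart from a change in the amount per cell.

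Lifr, the signalling receptor of LIF and CNTF, fell. The Sham-Saline mice had 595, 472, 528 and 556 CPM, and the SNI-Saline mice had 362, 337, 419 and 474 CPM. The groups touched at their edges, where the highest SNI-Saline mouse (474 CPM) stood just above the lowest Sham-Saline mouse (472 CPM). The log2 fold change was -0.43 ± 0.0998 (SE; 95% interval -0.64 to -0.22), with an adjusted p of 0.0228 and an exact permutation p of 0.0571. The adjusted p stayed under 0.1 in each of the 24 alternative fits run, with log2 fold changes of -0.53 to -0.33. Among 8 sensory neuron markers Tubb3 rose and Scn9a fell, and the sums over the 8 were 6449 to 6887 CPM in Sham-Saline and 6590 to 7111 CPM in SNI-Saline. Their part in the level of Lifr was not tested.

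Il31ra, the chain that binds the itch cytokine IL-31, fell at the edge of the threshold. The Sham-Saline mice had 48.3, 33.1, 38.3 and 41.8 CPM, and the SNI-Saline mice had 26.4, 33.02, 34.2 and 30.4 CPM. Of the 4 SNI-Saline mice, 3 lay below every Sham-Saline mouse, and replicate 3 at 34.2 CPM did not. The log2 fold change was -0.38 ± 0.135 (SE), the adjusted p was 0.0991 and the exact permutation p 0.0571. In 16 of 24 alternative fits the adjusted p passed 0.1, up to 0.293 without Sham-Saline replicate 1, while the log2 fold change stayed between -0.46 and -0.27. Of 4 other markers of itch neurons (Nppb, Sst, Cysltr2 and Htr1f) none passed the test, and their sums were 25.9 to 34.95 CPM in Sham-Saline and 26.3 to 29.2 CPM in SNI-Saline. Their part in the level of Il31ra was not tested.

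**Figure D2:**
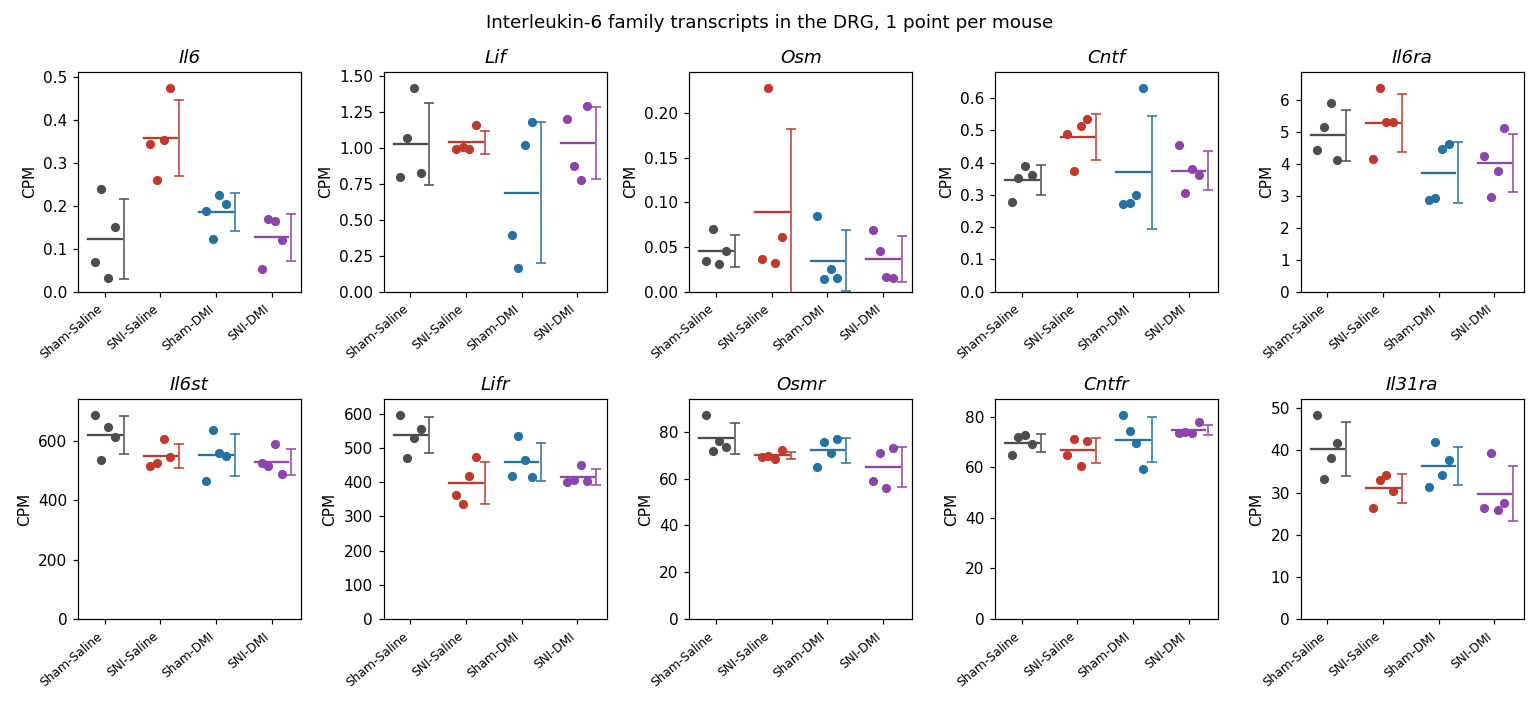
CPM of each member in each mouse, by group, with the group mean as a horizontal line and the SD (n = 4) as a bar beside it. The 4 SNI-Saline points of Il6 lie at 0.261 to 0.474 CPM, above those of the other 3 groups, and the SNI-Saline points of Lifr lie mostly below those of Sham-Saline. SD bars that would reach below 0 end at the axis.

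The other receptors did not pass the test after injury. Il6st, the gp130 chain common to IL-6, LIF, CNTF and oncostatin M, had 685, 535, 647 and 612 CPM in Sham-Saline and 514, 525, 607 and 546 CPM in SNI-Saline. The groups overlapped, with a log2 fold change of -0.18 ± 0.0899 and an adjusted p of 0.250. Osmr, the partner of gp130 for oncostatin M and of Il31ra for IL-31, had 77.2 ± 6.80 CPM (SD, n = 4) and 69.95 ± 1.55 CPM, with a log2 fold change of -0.14 ± 0.0805 and an adjusted p of 0.305. Il6ra was at 4.91 ± 0.798 and 5.29 ± 0.914 CPM (log2 fold change 0.11 ± 0.188, adjusted p = 0.788). Cntfr, the chain that makes cells responsive to CNTF, was at 69.7 ± 3.46 and 66.7 ± 5.04 CPM (-0.06 ± 0.0751, adjusted p = 0.669).

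Among the other ligands, none passed the test either. Lif, a regeneration cytokine made by Schwann cells of injured nerve, was at 1.03 ± 0.286 CPM in Sham-Saline and 1.04 ± 0.0805 CPM in SNI-Saline, with a log2 fold change of 0.01 ± 0.377 and a 95% interval of -0.78 to 0.80. That interval spans changes in both directions. These mice had 46 to 91 counts of Lif each. Cntf, the Schwann cell factor whose counts are uncertain for its overlap with Zfp91, was at 0.346 ± 0.0476 and 0.478 ± 0.0715 CPM (0.46 ± 0.284, adjusted p = 0.350), while Zfp91 itself had a log2 fold change of -0.16 and an adjusted p of 0.0608. Osm, made by neutrophils and macrophages, had 2, 5, 2 and 3 counts in the Sham-Saline mice and 2, 14, 2 and 4 counts in the SNI-Saline mice. The 14 counts, or 0.228 CPM, came from SNI-Saline replicate 2, the mouse with the highest sums of macrophage (201 CPM), neutrophil (52.3 CPM) and T cell markers (5.41 CPM). The next highest Osm, 0.0854 CPM in Sham-DMI replicate 1, stood beside sums of 91.3, 8.78 and 1.88 CPM in the same order. The part of these cells in the Osm counts was not tested.

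The balance of receptor chains was read as a ratio of CPM within each mouse. Lifr over Il6st was 0.726 ± 0.0982 (SD, n = 4) in SNI-Saline against 0.869 ± 0.0382 in Sham-Saline, and the groups overlapped (exact permutation p = 0.0571). In the same order Lifr over Osmr was 5.68 ± 0.795 and 6.97 ± 0.418 (exact permutation p = 0.0571), and Il31ra over Osmr was 0.444 ± 0.0534 and 0.521 ± 0.0493 (exact permutation p = 0.114). These are 3 of 20 ratio comparisons made, none of which reached an exact permutation p under 0.05.

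**Figure D3:**
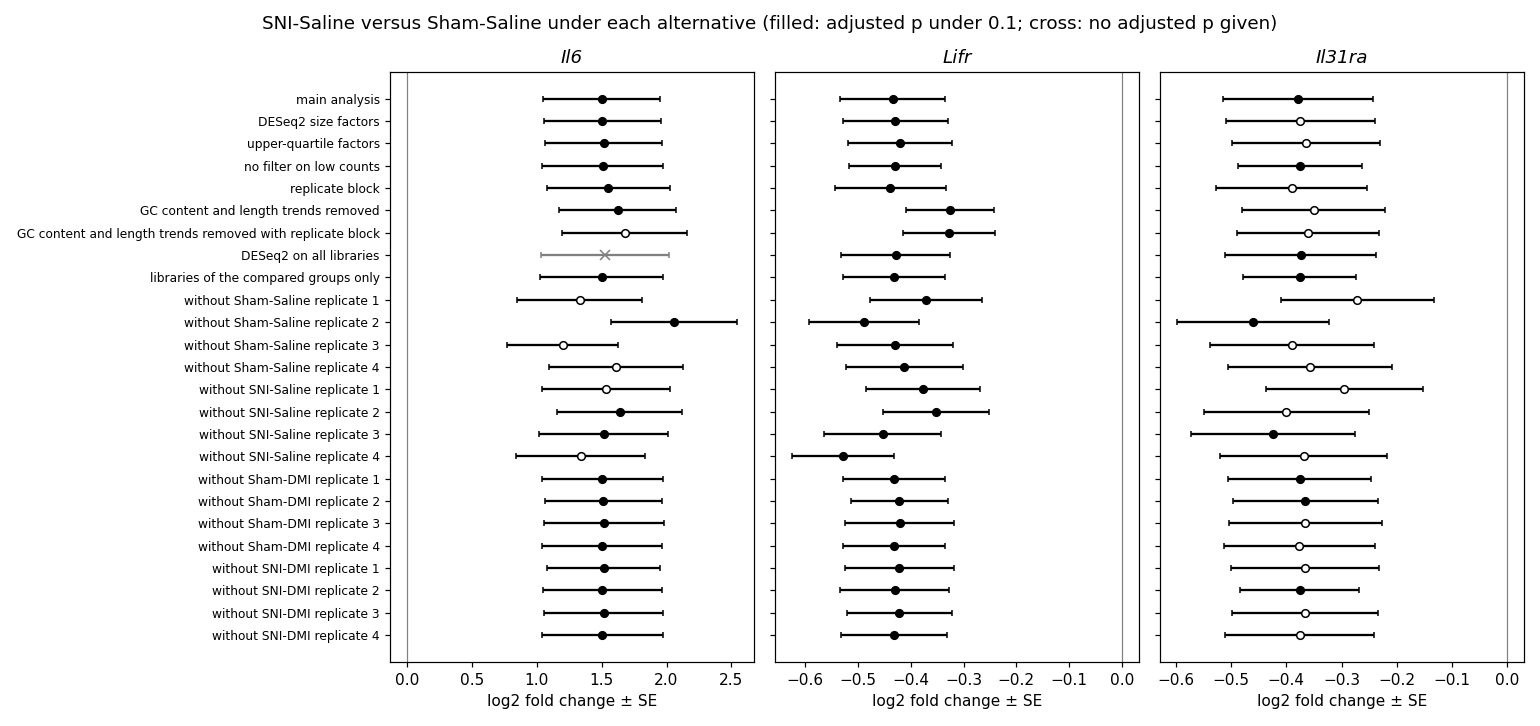
Log2 fold change in SNI-Saline versus Sham-Saline with its SE for Il6, Lifr and Il31ra under each analysis, with filled points for an adjusted p under 0.1, open points for a larger one and a cross where DESeq2 gave none. The Lifr points are all filled, between -0.53 and -0.33, and the Il6 points lie between 1.20 and 2.06.

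In mice given DMI no member passed the test for injury. In SNI-DMI versus Sham-DMI 0 of 9 tested members had an adjusted p under 0.1, where 0.402% of all tested genes did, and 1 (Il31ra) had a nominal p under 0.05, where 12.1% did. DESeq2 called none of the 8 members to which it gave an adjusted p. No member met the nominal cut-offs (5.41% of all tested genes) and in none did the groups lie apart (5.04%). Il31ra was at 31.3, 41.9, 34.3 and 37.7 CPM in Sham-DMI and 26.2, 39.5, 25.8 and 27.5 CPM in SNI-DMI. SNI-DMI replicate 2 stood among the Sham-DMI mice and the other 3 stood below them all, with a log2 fold change of -0.29 ± 0.136 and an adjusted p of 0.406. Lifr was at 417, 535, 466 and 416 CPM in Sham-DMI and 401, 406, 452 and 402 CPM in SNI-DMI (-0.14 ± 0.0996, adjusted p = 0.587). Il6 was at 0.188, 0.124, 0.225 and 0.205 CPM in Sham-DMI and 0.0523, 0.168, 0.165 and 0.121 CPM in SNI-DMI, or 9 to 13 and 3 to 11 counts. These groups overlapped (log2 fold change -0.51 ± 0.483, adjusted p = 0.702).

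**Figure D4:**
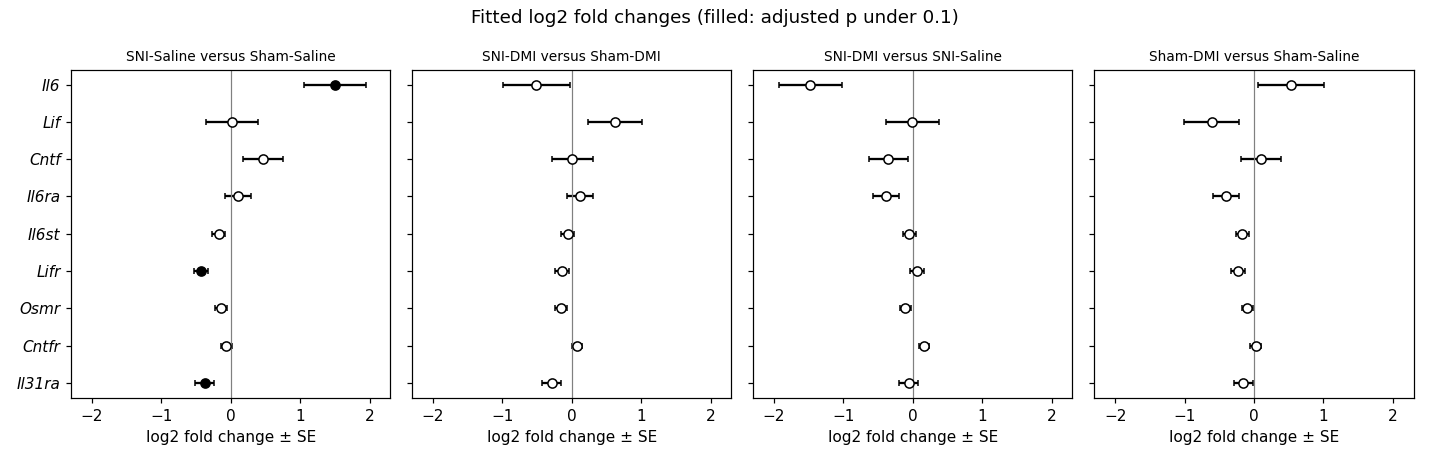
Fitted log2 fold change with its SE for the 9 tested members in 4 comparisons, with filled points for an adjusted p under 0.1. Filled points occur in SNI-Saline versus Sham-Saline alone, for Il6 (1.502), Lifr (-0.43) and Il31ra (-0.38), and the widest bars belong to the low-count ligands Il6, Lif and Cntf.

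DMI under SNI went with lower Il6 values, short of the adjusted threshold. In SNI-DMI versus SNI-Saline 0 of 9 tested members had an adjusted p under 0.1 by edgeR, where 2.93% of all tested genes did. DESeq2 called none of the 7 members to which it gave an adjusted p, and Il6 was not among these 7. A nominal p under 0.05 was found for 2 members (Il6 and Cntfr) and for 18.5% of all tested genes. By the nominal cut-offs 1 member (Il6) was a DEG, where 5.73% of all tested genes were. The Il6 values of SNI-DMI (0.0523 to 0.168 CPM) all lay below those of SNI-Saline (0.261 to 0.474 CPM), with 32 and 88 counts in all. The log2 fold change was -1.48 ± 0.453 (SE; 95% interval -2.43 to -0.53), the nominal p 0.0043, the adjusted p 0.110 and the exact permutation p 0.0286. The adjusted p ran from 0.0642 with the 8 libraries of both groups fitted alone to 0.289 with trends on GC content and length removed together with a replicate block. The SNI-Saline mice entered both this comparison and the one for injury. In the same comparison all 10 neutrophil markers had lower values, with a median log2 fold change of -1.44, and 7 met the nominal cut-offs. Of the 10, 2 (Retnlg and S100a8) fell by the adjusted p. Their sums of 4.61 to 14.3 CPM in SNI-DMI lay wholly below the 16.4 to 52.3 CPM of SNI-Saline, with Ly6g and Elane at 0 in 1 of the 16 libraries each, and none of the 8 macrophage markers passed the test at sums of 92.9 to 180 CPM. Their part in the Il6 counts was not tested.

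Cntfr was the other member whose groups lay apart, as 13.3% of tested genes did. The SNI-DMI mice had 73.4, 73.8, 73.7 and 77.7 CPM, and the SNI-Saline mice had 64.9, 71.2, 60.4 and 70.2 CPM. The log2 fold change was 0.16 ± 0.0751, the adjusted p 0.253 and the exact permutation p 0.0286. Il6ra was at 4.04 ± 0.905 CPM in SNI-DMI against 5.29 ± 0.914 CPM in SNI-Saline (-0.39 ± 0.190, adjusted p = 0.279). For Lifr, which was lower after injury, the log2 fold change with DMI was 0.06 ± 0.0996 with a 95% interval of -0.15 to 0.27, and for Il31ra it was -0.06 ± 0.136 with an interval of -0.35 to 0.22. Il6st, Osmr, Lif and Cntf had fitted differences of -0.05, -0.11, -0.01 and -0.35 on the log2 scale, at adjusted p-values of 0.486 to 0.995.

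In sham mice DMI went with no called member, although 23.4% of all tested genes had an adjusted p under 0.1 in Sham-DMI versus Sham-Saline by edgeR. DESeq2 called none of the 8 members with an adjusted p, and 2 members (Il6ra and Lifr) had a nominal p under 0.05, where 30.6% of all tested genes did. By the nominal cut-offs 1 member (Il6ra) was a DEG, where 11.5% of all tested genes were. Il6ra was at 2.87, 2.95, 4.47 and 4.63 CPM in Sham-DMI and 4.43, 5.17, 5.92 and 4.14 CPM in Sham-Saline, with overlap, a log2 fold change of -0.40 ± 0.191 and an adjusted p of 0.162. Lifr had a log2 fold change of -0.23 ± 0.0996 and an adjusted p of 0.125. After removal of the trends on GC content and length the log2 fold change of Lifr was -0.07, with an adjusted p of 0.631. In the 16 fits without 1 library Lifr was called in 3, at an adjusted p down to 0.0432. Il6st was called in 2 of these fits (down to 0.0809) and Lif in 1 (0.0985). Lif varied widely among the Sham-DMI mice, at 0.393, 0.165, 1.02 and 1.18 CPM against 0.800, 1.07, 1.42 and 0.830 CPM in Sham-Saline. Replicates 1 and 2 of Sham-DMI lay below every Sham-Saline mouse and the other 2 among them, with a log2 fold change of -0.61 ± 0.391 (adjusted p = 0.312). Il6 had a log2 fold change of 0.53 ± 0.481 (adjusted p = 0.493), and for the other 5 tested members the log2 fold changes ran from -0.17 to 0.10.

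The effect of DMI under SNI was also set against that under sham in 1 interaction term. No member had an adjusted p under 0.1, and 0% of all tested genes did by edgeR, with 1692 genes (7.92%) at an unadjusted p under 0.05, of which Il6 was the 1 member. DESeq2 called 16 genes, none of them a member. For Il6 the difference between the DMI effects was -2.01 ± 0.662 on the log2 scale (SE; 95% interval -3.40 to -0.62), with a nominal p of 0.0071 and an adjusted p of 0.619. It was the 1 member past the nominal cut-offs, which 3.45% of all tested genes met. Lifr followed with a difference of 0.29 ± 0.141 and an adjusted p of 0.628.

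Across the 16 mice the receptor transcripts varied together in part. Pearson's r of log2 CPM was 0.784 between Osmr and Il31ra, the partners in the IL-31 receptor, and 0.771 between Il6st and Lifr. It was 0.731 between the receptor gene Il6ra and the ligand gene Lif. Further values were 0.652 between Lifr and Il31ra, 0.631 between Il6st and Il31ra, and -0.617 between Cntf and Cntfr. Cntfr had a negative r with each of the other receptors, from -0.39 with Il6st to -0.01 with Lifr. The 16 libraries come from 4 groups, so differences between groups enter these values along with those between mice, and they are given as a description. For the 6 members with a mean of at least 1 CPM, all receptors, the genes most alike were Rc3h1 (r = 0.969), Marf1 and Ubxn7 (both 0.948) for Lifr, Zfhx4 (0.956), Vps13c (0.951) and Zfp462 (0.947) for Il6st, and Slc25a22 (0.934), Hk1 (0.917) and Tnip1 (0.910) for Cntfr. For Il31ra they were Zswim5 (0.930), Gnb4 (0.907) and Acpp (0.893), for Il6ra Scube1 (0.916), Dag1 (0.912) and Ogn (0.911), and for Osmr Taf1d (0.856), Snord91a (0.849) and Tex30 (0.848). Each r is over 16 libraries.

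Beside the members, 9 other ligands and receptors of the family were listed and 6 tested. None of the 6 had an adjusted p under 0.1 for injury in either arm by edgeR. At an unadjusted p under 0.05 there were 0 in the saline mice and 2 in the DMI mice. Of all 21371 tested genes, 4914 had such a p in the saline mice and 2586 in the DMI mice. DESeq2 called none of the 3 and 5 listed genes to which it gave an adjusted p in these arms. Il11ra1, the IL-11 receptor chain, was higher with DMI both under SNI (0.36 ± 0.1001, adjusted p = 0.0967) and in sham mice (0.27 ± 0.101, adjusted p = 0.0772). The first call was lost in 15 of 24 alternative fits, 11 of them without 1 library, and the second in 7 of 24. Il11 was at 0.171 to 0.285 CPM in group means, with a log2 fold change of -0.38 ± 0.476 for injury (adjusted p = 0.693). The ligand Clcf1 had 4 counts and the Osmr ligand Il31 had 2 counts in all, each with 0 counts in 14 of 16 libraries, where a library at 0 allows up to 3 counts or 0.0412 to 0.0749 CPM.

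Of the 50 tested genes in 5 lists of the wider pathway, 4 rose and 3 fell in SNI-Saline versus Sham-Saline, a share of 14% where 12.0% of all tested genes were called. Of 12 JAK-STAT transducers none rose and 1 fell, with a list median of -0.06: Sos1, an exchange factor of the RAS branch (-0.37 ± 0.0720, adjusted p = 0.0120). Jak1 (-0.06 ± 0.0578, adjusted p = 0.597) and Stat3 (-0.10 ± 0.0551, adjusted p = 0.308), the main kinase and transcription factor of gp130, were at 515 ± 21.7 and 412 ± 19.1 CPM in SNI-Saline. Of 11 negative regulators and shedding enzymes 1 rose and 1 fell, with a median of 0.05. Socs3, the STAT3-induced inhibitor that binds gp130, rose from 10.5 ± 1.33 to 13.3 ± 0.767 CPM without overlap (0.35 ± 0.110, adjusted p = 0.0684), and Ptprt, a phosphatase of STAT3, fell (-0.48 ± 0.121, adjusted p = 0.0319). The call of Socs3 was lost in 7 of 24 alternative fits, 5 of them without 1 library, at an adjusted p of up to 0.167. Adam17, the sheddase of IL-6Rα, had a log2 fold change of 0.11 ± 0.0996 (adjusted p = 0.541).

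Of 18 genes listed as STAT3 targets 2 rose and 1 fell with injury, with a median of 0.14. Fgl2 (0.68 ± 0.208, adjusted p = 0.0620), a coagulation enzyme of macrophages, and Timp1 (0.58 ± 0.186, adjusted p = 0.0741), a metalloproteinase inhibitor, were the 2 that rose, and Hif1a (-0.16 ± 0.0519, adjusted p = 0.0717) fell. The call was lost in 13 of 24 alternative fits for Hif1a, 8 for Timp1 and 6 for Fgl2, and Hif1a stood at -0.03 (adjusted p = 0.793) with trends on GC content and length removed. Of 5 injury genes known to respond to LIF 3 were tested and 1 rose, Sprr1a, a regeneration-associated gene of axon outgrowth, from 1.15 ± 0.628 to 43.9 ± 1.99 CPM (5.23 ± 0.540, adjusted p = 5.05e-05). Gal (0.48, adjusted p = 0.144) and Gfap (0.59, adjusted p = 0.178) did not pass by edgeR, and DESeq2 called Gfap. Over the 5 lists DESeq2 called 11 of the 47 genes with an adjusted p for injury. Over all genes it called 3390 of the 38180 with a p-value. The 38180 include genes without an adjusted p, so these shares are not on the same base and cannot be compared.

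Under DMI the 1 injury call of edgeR among these lists was Sprr1a (2.97 ± 0.453, adjusted p = 0.00670), a share of 2% where 0.402% of all tested genes were called. DESeq2 called 5 of the 49 with an adjusted p (Sprr1a, Gal, Cebpb, Cebpd and Timp1), and over all genes 502 of the 38180 with a p-value. As the 38180 include genes without an adjusted p, these shares cannot be compared. With DMI under SNI 2 of the 50 tested genes of the 5 lists passed by edgeR, a share of 4% where 2.93% of all tested genes did, Il11ra1 and the survival gene Bcl2l1 (0.26 ± 0.0643, adjusted p = 0.0735), both higher. The call of Bcl2l1 was lost in 11 of 24 alternative fits. DESeq2 called 8 of the 47 with an adjusted p (Il11ra1, Bcl2l1, Adam10, Socs3, Cebpb, Lcn2, Gal and Gfap). By group mean CPM, Il11ra1, Bcl2l1, Cebpb and Gal were higher in SNI-DMI than in SNI-Saline, and Adam10, Socs3, Lcn2 and Gfap were lower. Over all genes DESeq2 called 1859 of the 38180 with a p-value, again a base that includes genes without an adjusted p. Socs3 was then at 10.6 ± 0.901 CPM against 13.3 ± 0.767 CPM, with no overlap but an adjusted p of 0.132 by edgeR. In sham mice given DMI 4 of the 50 rose (Il11ra1, Mapk3, Bcl2l1 and Sprr1a) and 7 fell (Jak2, Sos1, Adam10, Ptprt, Hif1a, Lcn2 and Gfap), a share of 22% beside the 23.4% of all tested genes. Lcn2 (-1.11 ± 0.326, adjusted p = 0.0277), an iron-binding protein of neutrophils, fell most of these, beside 7 of 10 neutrophil markers that fell at sums of 3.996 to 18.9 CPM in Sham-DMI. The part of neutrophils in it was not tested. With trends on GC content and length removed, the calls of Hif1a, Sos1, Jak2 and Mapk3 were lost. Hif1a then stood at -0.007 where it was -0.27, Sos1 at -0.07 where it was -0.32, Jak2 at -0.04 where it was -0.19, and Mapk3 at 0.11 where it was 0.18. The call of Mapk3 was lost in 13 of 24 alternative fits and that of Gfap in 10, 9 of them without 1 library.

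**Figure D5:**
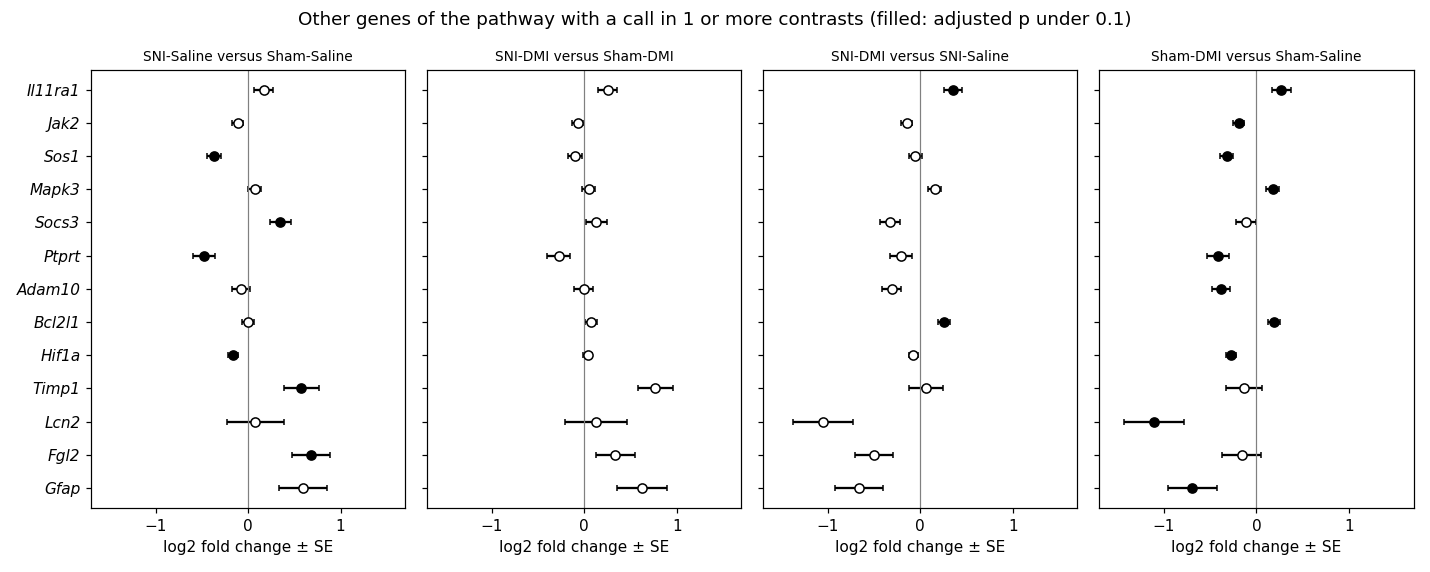
Fitted log2 fold change with its SE in 4 comparisons for the genes of the 5 pathway lists that had an adjusted p under 0.1 in 1 or more of them, with filled points for those calls. Il11ra1 and Bcl2l1 are filled in both DMI comparisons, and Sprr1a, at 5.23 for injury, lies outside the axis and is left out.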

How the data were processed

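Bulk RNA sequencing of the DRG was made by the authors with a stranded mRNA kit, in 16 libraries of 1 mouse each. The deposited values are whole-number counts per Ensembl gene without normalization. The submitters' processing notes name mm10, HISAT2, HTSeq and DESeq2. The release of the annotation and whether counting used strand are not given in the sources used here. The closing lines of unassigned reads were left out, and 79.6% to 81.2% of the read pairs fell on genes.

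Groups followed the labels. Of 52636 genes, 52489 were found in GENCODE M21 on GRCm38, which gave symbols and coordinates, and 147 were not. Genes were kept by filterByExpr (21371), scaled by TMM and fitted with glmQLFit in edgeR 4.0.16 under R 4.3.3, with 1 coefficient per group over all 16 libraries, and p-values were adjusted by the Benjamini-Hochberg method over all genes tested. A call is an adjusted p under 0.1 by edgeR unless DESeq2 is named. The study's DEG cut-offs, a nominal p under 0.05 with a log2 fold change of 0.32 or more in size, formed a second rule. CPM are counts over the TMM-scaled library size. Single members of 4 mice against 4 were compared by an exact two-sided permutation test of log2 CPM (prior count 2), whose smallest p is 0.0286. Intervals of log2 fold changes use the t quantile at the degrees of freedom of the fit. The p-values measure the spread between single mice. With counts of 41194238 or more per library, a library at 0 allows up to 3 counts, and intervals on counts cover counting error only.

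The members and gene lists were chosen with earlier results of these data known. All members are named, along with listed pathway genes with an adjusted p under 0.1 in any contrast, 7 genes needed beside the members (Socs3, Stat3, Jak1, Il11, Clcf1, Il31 and Adam17), and for each member with a mean of at least 1 CPM the 3 tested genes with the highest Pearson correlation. Some listed genes are not reported here and are left out of the list counts. The edgeR fit was also run on counts simulated from the means and dispersions of these data, with known changes put in. Those counts held no trends on GC content or length. The outcome is not given here and supports no result of this report. Alternatives were DESeq2 size factors, upper-quartile factors, no filter, the replicate number as a block, removal of trends on GC content and length (mgcv 1.9.3) with and without that block, DESeq2 1.42.0, the compared groups alone, a prior count of 0.5, the longest transcript as length, and each library left out in turn. Promoter windows are from RefSeq. Python 3.11.15 (pandas 2.3.3, numpy 2.4.6, matplotlib 3.10.9) served for tables and figures.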

Additional observations from a re-analysis of the deposited data

Results flagged for a closer look

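In groups of 4 mice, a mouse was marked when its gap to the nearest other as a share of the group's range exceeded Dixon's 95% critical value. This occurred in 16 of 112 groups of values, and chance marks about 1 in 20 groups.

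Among the ligands, Lif was 1.16 CPM in SNI-Saline replicate 4, against 0.996 to 1.01 CPM in the other mice of its group. Osm was 0.228 CPM in SNI-Saline replicate 2 against 0.0321 to 0.0611 CPM, and 0.0854 CPM in Sham-DMI replicate 1 against 0.0137 to 0.0250 CPM, which for Osm are 14 and 5 counts. Cntf was 0.631 CPM in Sham-DMI replicate 4 against 0.273 to 0.300 CPM. Without that mouse the log2 fold change of Cntf in Sham-DMI versus Sham-Saline was -0.28, where it was 0.10 with all mice and was called in neither.

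Among the receptors, all 3 marks lay in SNI-DMI. Lifr was 452 CPM in replicate 3 against 401 to 406 CPM, Cntfr was 77.7 CPM in replicate 4 against 73.4 to 73.8 CPM, and Il31ra was 39.5 CPM in replicate 2 against 25.8 to 27.5 CPM. Without replicate 2 the log2 fold change of Il31ra in SNI-DMI versus Sham-DMI was -0.46, where it was -0.29 with all mice, and it was called in neither.

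Among the other genes of the pathway, Timp1 was 3.13 CPM in Sham-Saline replicate 1 against 1.74 to 1.89 CPM and 4.24 CPM in SNI-Saline replicate 3 against 2.70 to 2.92 CPM. Hif1a was 66.7 CPM in SNI-Saline replicate 2, 65.3 CPM in Sham-DMI replicate 2 and 67.9 CPM in SNI-DMI replicate 4, each above the others of its group. Bcl2l1 was 64.5 CPM in SNI-Saline replicate 3 against 73.1 to 73.6 CPM, and Jak2 was 28.7 CPM in SNI-Saline replicate 1 against 32.0 to 32.7 CPM. Stat3 was 411 CPM in Sham-Saline replicate 2 against 447 to 454 CPM, and Adam17 was 20.3 CPM in Sham-DMI replicate 1 against 27.4 to 28.1 CPM.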

How the results depend on the processing

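Of 904 alternative values for the members' log2 fold changes, 835 kept their direction and side of the threshold, 22 lost a call, 11 gained one and 36 changed sign, all 36 for values that were not called. For the other pathway genes 495 of 599 were kept and 104 lost a call. The call of Lifr after injury was kept in all 24 alternatives. Beside the fits without 1 library, that of Il6 was lost with GC content and length trends removed with the replicate block (1.68, adjusted p = 0.110), and DESeq2 gave Il6 no adjusted p (log2 fold change 1.53). That of Il31ra was lost with DESeq2 size factors, upper-quartile factors, the replicate block, and the trends removed with and without the block.

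Members called for injury numbered 1 with the trends removed with the replicate block and 1 to 3 without 1 library, where it was 1 without SNI-Saline replicate 1 or 4, or replicate 1, 3 or 4 of Sham-Saline. For SNI-DMI versus SNI-Saline the count was 1 (Il6) with the compared groups only and 0 to 1 without 1 library, being 1 without Sham-Saline replicate 3, SNI-Saline replicate 2 or Sham-DMI replicate 1 or 2. By the nominal cut-offs it was 2 with no filter, the replicate block, DESeq2 or the compared groups only, and 1 to 2 without 1 library. For Sham-DMI versus Sham-Saline the adjusted count was 0 to 2 without 1 library, above 0 without Sham-Saline replicate 2, SNI-Saline replicate 4 or Sham-DMI replicate 2 or 4. The nominal count there was 0 with both other scalings, both trend removals and the compared groups only, and 0 to 2 without 1 library. The nominal count was 0 to 1 for SNI-DMI versus Sham-DMI and 1 to 2 for the difference between the DMI effects without 1 library. Per kilobase of the longest transcript, Il6st stood at 64.8, Cntfr at 35.3, Osmr at 12.9 and Il31ra at 9.33 CPM.

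With 0 genes called in the difference between the DMI effects, 1 was called with the trends removed and the block and 16 by DESeq2. Signs changed with the trends removed, without and with the replicate block, for Lif after injury (-0.028, -0.034), Osmr in Sham-DMI versus Sham-Saline (0.11, 0.11), Cntfr there (-0.012, -0.013) and in SNI-DMI versus Sham-DMI (-0.042, -0.040), and Il6st in SNI-DMI versus SNI-Saline (0.0032, 0.0026). They changed without the block for Osmr (0.0014) and Il31ra (0.0042) in SNI-DMI versus SNI-Saline and Cntf in SNI-DMI versus Sham-DMI (-0.014, and -0.0012 with DESeq2). Without 1 library the ranges that crossed 0 were, in SNI-DMI versus Sham-DMI, -0.036 to 0.24 for Il6ra, -0.15 to 0.020 for Il6st, -0.13 to 0.39 for Cntf and -0.018 to 0.13 for Cntfr. They were -0.076 to 0.22 for Lif after injury, -0.13 to 0.12 for Lif and -0.23 to 0.019 for Il31ra in SNI-DMI versus SNI-Saline, and -0.28 to 0.25 for Cntf and -0.024 to 0.12 for Cntfr in Sham-DMI versus Sham-Saline. The cause was not tested.

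Over all genes, calls for injury were 2571, and 824 with the trends removed (500 with the block) and 682 to 3286 without 1 library, while those for SNI-DMI versus SNI-Saline were 626, and 7 with the trends removed, 0 with the block as well, 172 with the block alone, 1859 by DESeq2, 1812 with the compared groups only and 0 to 1842 without 1 library. Those for SNI-DMI versus Sham-DMI were 86, and 310 with no filter, 217 with the trends removed, 502 by DESeq2, 9 with the compared groups only and 17 to 850 without 1 library.

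Whether replicate numbers pair the mice cannot be decided with 4 mice per group. Correlations of same-numbered deviations ran from -0.240 to 0.334, and those of differently numbered mice from -0.353 to 0.343. For DMI under SNI, 2 same-numbered values passed 0.1, the highest at 0.332, while differently numbered ones reached 0.0749. For injury in the DMI mice, 0 same-numbered values passed 0.1, while differently numbered ones reached 0.343. With the replicate block 2 members (Il6 and Lifr) were called for injury. Depth limits the ligands, with 1 to 31 counts per mouse for Il6 and Osm.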

Other observations

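Other cells of the ganglion were followed by marker genes. None of 7 Schwann cell, 6 T cell or 6 fibroblast markers had an adjusted p under 0.1 in any of the comparisons by edgeR. Of all 21371 tested genes, 4914 had an unadjusted p under 0.05 for injury in the saline mice and 2586 in the DMI mice. For DMI in sham mice 6538 did. Among these markers, injury had 2 Schwann cell markers and 1 T cell marker in the saline mice at that level. It had 1 Schwann cell, 2 T cell and 2 fibroblast markers in the DMI mice, and DMI had 1 T cell and 1 fibroblast marker in sham mice. Of these genes with a DESeq2 adjusted p, 1 was called, Ncmap, a Schwann cell gene of myelin, for injury in the saline mice, and DESeq2 gave most T cell markers no adjusted p there. Of 6 satellite glia markers none passed for injury by edgeR, while DESeq2 called Glul in the saline mice and Kcnj10 in the DMI mice. Fabp7, a fatty acid binding protein of these glia, was higher with DMI under SNI (log2 fold change 0.34, adjusted p = 0.0972) and in sham mice (0.31, adjusted p = 0.0388), and Cdh19 and Ptprz1 fell in Sham-DMI versus Sham-Saline. With DMI under SNI 5 of the 6 had an unadjusted p under 0.05, where 18.5% of all tested genes did, and the list ran from -0.44 to 0.34. In sham mice all 6 did, where 30.6% of all tested genes did, from -0.46 to 0.31. DESeq2 called Cdh19, Fabp7, Glul and Kcnj10 with DMI under SNI and Cdh19, Fabp7, Glul, Lgi4 and Ptprz1 in sham mice. Of 8 sensory neuron markers 2 rose and 1 fell in Sham-DMI versus Sham-Saline, and Nppb of the 4 itch neuron markers rose (0.36, adjusted p = 0.0891). Injured neuron markers rose in 6 of 7 cases in SNI-DMI versus Sham-DMI and in 4 of 7 in Sham-DMI versus Sham-Saline, where sums ran from 70.9 to 102 CPM.

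Among blood and vessel cells, Mrc1 of 8 macrophage markers and Flt1 of 5 endothelial markers fell in Sham-DMI versus Sham-Saline. None of the 3 tested B cell markers passed in any comparison by edgeR, with 1 at an unadjusted p under 0.05, in Sham-DMI versus Sham-Saline, where DESeq2 called 1 (Cd79b). Of the 4 tested spinal cord genes Olig1 rose with injury (1.33, adjusted p = 0.0992) and Mobp fell with DMI under SNI (-1.83, adjusted p = 0.0973). No relation of these genes to the interleukin-6 family was tested.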
